A study of Mus musculus with 12 samples.

Results

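Chemokine ligands of T cells were followed through all 12 libraries as a set of 6 genes, Ccl3, Ccl4, Ccl5, Ccl9, Xcl1 and Ccl1. They were chosen by gene symbol, and all 6 were found among the 35855 genes for which transcripts were deposited. The libraries were made by RNA-seq from sorted CD8 T cells of mouse spleen, with 3 libraries in each of 4 groups. WT donors were C57BL/6 mice, and TCF-1 cKO donors, labelled TCF-7 cKO, carried a floxed Tcf7 gene and CD4cre on the same background. CD4cre is active in developing thymocytes, so it removes the gene from CD4 and CD8 T cells alike. The labels name no Cre in the WT donors. Pre-transplant libraries came from donor spleens. Post-transplant libraries came from donor cells, recognised by their H2kb, taken at day 7 from the spleens of irradiated BALB/c recipients that had received CD3 T cells of either genotype together with WT bone marrow depleted of T cells. The labels give no strain for the marrow and no age for the mice. According to the study's methods the WT libraries also serve in other work of the same laboratory.

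Chemokines are small secreted proteins that draw leukocytes along a gradient by binding receptors coupled to G proteins. Activated CD8 T cells are known sources of Ccl3, Ccl4 and Ccl5, inflammatory ligands that attract T cells and myeloid cells, and of Xcl1, which attracts dendritic cells that carry Xcr1. Ccl1 binds Ccr8, and Ccl9 binds Ccr1 and is best known from myeloid cells. In graft-versus-host disease such ligands are known for recruiting further leukocytes to lymphoid organs and target tissues.

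Ccl5, Ccl9, Ccl3 and Ccl4 lie in the same region of mouse chromosome 11 (GRCm38). Ccl5 (ENSMUSG00000035042) spans 83525778 to 83530518 and Ccl9 (ENSMUSG00000019122) spans 83572919 to 83578636, both on the minus strand. Ccl3 (ENSMUSG00000000982) spans 83647844 to 83649355 on the minus strand, and Ccl4 (ENSMUSG00000018930) spans 83662584 to 83664683 on the plus strand. Ccl1 (ENSMUSG00000020702) is on the same chromosome, from 82176657 to 82305690 on the minus strand. Xcl1 (ENSMUSG00000026573) is the only member elsewhere, on chromosome 1 from 164931644 to 164935527 on the minus strand. All 6 are annotated as protein coding. Ccl3, Ccl4 and Xcl1 each had 1 transcript, and 1 Ccl5 transcript held between 99.2% and 100% of its TPM in every library. The main Ccl1 transcript held between 60.5% and 98.6% of the Ccl1 TPM. Ccl9 TPM was divided more variably, with between 0% and 68.0% in a transcript that has no annotated coding sequence.

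To show the upstream sequence of Ccl1 and Ccl3, which were lower in TCF-1 cKO than in WT cells post-transplant, beside Xcl1, for which that genotype comparison did not pass, 250 bases before the RefSeq start of each gene are given (GRCm38.p6, 5′ to 3′ on the gene's strand). Capitals mark matches, on either strand, to any of 6 motifs. The motifs were CTTTGA for TCF/LEF, the factor family to which TCF-1 belongs, TGANTCA for AP-1, GGTGTGA for T-box factors, TGTGGT for Runx, GGAAAA for NFAT and the NF-kB consensus.
Ccl1 promoter, chr11:82179813-82180062, minus strand: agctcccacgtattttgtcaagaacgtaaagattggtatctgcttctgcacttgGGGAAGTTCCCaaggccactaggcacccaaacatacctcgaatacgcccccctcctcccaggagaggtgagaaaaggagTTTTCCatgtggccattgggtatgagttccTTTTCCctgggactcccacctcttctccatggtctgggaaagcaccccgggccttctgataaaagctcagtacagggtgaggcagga
Ccl3 promoter, chr11:83649379-83649628, minus strand: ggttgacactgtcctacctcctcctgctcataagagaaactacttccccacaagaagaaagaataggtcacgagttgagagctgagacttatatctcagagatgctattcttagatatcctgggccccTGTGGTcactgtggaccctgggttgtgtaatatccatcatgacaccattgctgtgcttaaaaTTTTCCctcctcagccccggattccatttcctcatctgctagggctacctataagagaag
Xcl1 promoter, chr1:164935523-164935772, minus strand: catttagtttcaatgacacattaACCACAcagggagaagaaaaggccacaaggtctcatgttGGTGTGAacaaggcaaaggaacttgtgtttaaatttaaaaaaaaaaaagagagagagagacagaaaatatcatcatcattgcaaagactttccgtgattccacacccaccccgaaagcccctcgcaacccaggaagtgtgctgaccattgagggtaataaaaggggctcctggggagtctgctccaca
The Ccl1 window held the NF-kB consensus, matched on both strands in overlapping positions, and NFAT matches at 2 places. The Ccl3 window held a Runx and an NFAT match, and the Xcl1 window a Runx and a T-box match. The promoter source used here held windows for 4 of the 6 members and none for Ccl4 and Ccl5, which were therefore not searched. The Ccl9 window held an AP-1 and an NF-kB match. None of the 4 windows held the TCF/LEF letters, which occurred in 13.8% of 32851 promoter windows of this length. The other motifs occurred in 20.4% (NFAT), 14.0% (Runx), 7.25% (NF-kB), 6.75% (AP-1) and 3.33% (T-box) of those windows. A match describes letters only, and its absence says nothing of what a factor does at the gene.

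Library totals ranged from 4520270 to 32657005 estimated counts, and those of TCF-1 cKO cells before transplant, none above 9577076, were the shallowest. No member fell below 6 estimated counts in any library, above the 3 counts taken as the least a library could show. Tcf7, the targeted gene, stood at 49.7 to 87.1 TPM in pre-transplant WT and at 22.1 to 38.6 TPM in pre-transplant TCF-1 cKO libraries. Post-transplant Tcf7 was 6.55, 4.69 and 2.23 TPM in WT replicates 1, 2 and 3 by label, and 2.79 to 2.97 TPM in TCF-1 cKO libraries. The library labelled WT replicate 3 therefore lay below all 3 TCF-1 cKO libraries, against its label, and it enters each post-transplant direction as labelled. In the edgeR fits described below, Tcf7 was not called between genotypes at either stage. The log2 fold change of Tcf7 was -1.35 before transplant (adjusted p = 0.223) and -0.91 after it (adjusted p = 0.308). TCF-1 cKO post-transplant replicate 2 is titled as CD8 but has a source label naming CD4 T cells, and it held 0.453 TPM of Cd4 and 151 TPM of Cd8a.

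The pre-transplant libraries did not look like purified CD8 T cells. Their 6 B cell markers summed to 5699 to 12076 TPM, against 120 to 308 TPM post-transplant, while their 6 T cell markers summed to 512 to 567 TPM in TCF-1 cKO and 1240 to 1335 TPM in WT, against 2589 to 3748 TPM post-transplant. Myeloid markers (9 genes) summed to 1968 to 4768 TPM before and 152 to 928 TPM after transplant, and NK cell markers (5 genes), whose cells are known to make Ccl3, Ccl4, Ccl5 and Xcl1, to 890 to 1839 TPM before and 33.5 to 106 TPM after. The same contrast held for dendritic (11.6 to 105 against 3.29 to 15.6 TPM, 4 genes), erythroid (11997 to 56526 against 377 to 3003 TPM, 6 genes), platelet (19.0 to 75.0 against 0.689 to 2.53 TPM, 4 genes) and CD4 T cell markers (31.4 to 80.6 against 0.911 to 14.9 TPM, 3 genes). The dendritic ranges overlapped only across genotypes. Within WT they were 60.0 to 105 against 6.90 to 15.6 TPM, and within TCF-1 cKO 11.6 to 23.9 against 3.29 to 5.86 TPM. Itgax, in the dendritic list, overlapped between stages in both genotypes. None of the listed markers was at 0 in all pre-transplant libraries of a group, and 1 platelet marker was at 0 in all 3 TCF-1 cKO post-transplant libraries. The pre-transplant NK sum rested mainly on Tyrobp (566 to 1292 TPM) and Fcer1g (256 to 504 TPM). Ncr1, Klrb1c and Klra8 lay between 2.43 and 59.2 TPM there. Whether the Tyrobp and Fcer1g transcripts came from NK or myeloid cells was not tested. In bulk RNA, fewer cells of a type and less RNA per cell cannot be told apart.

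**Figure D1:**
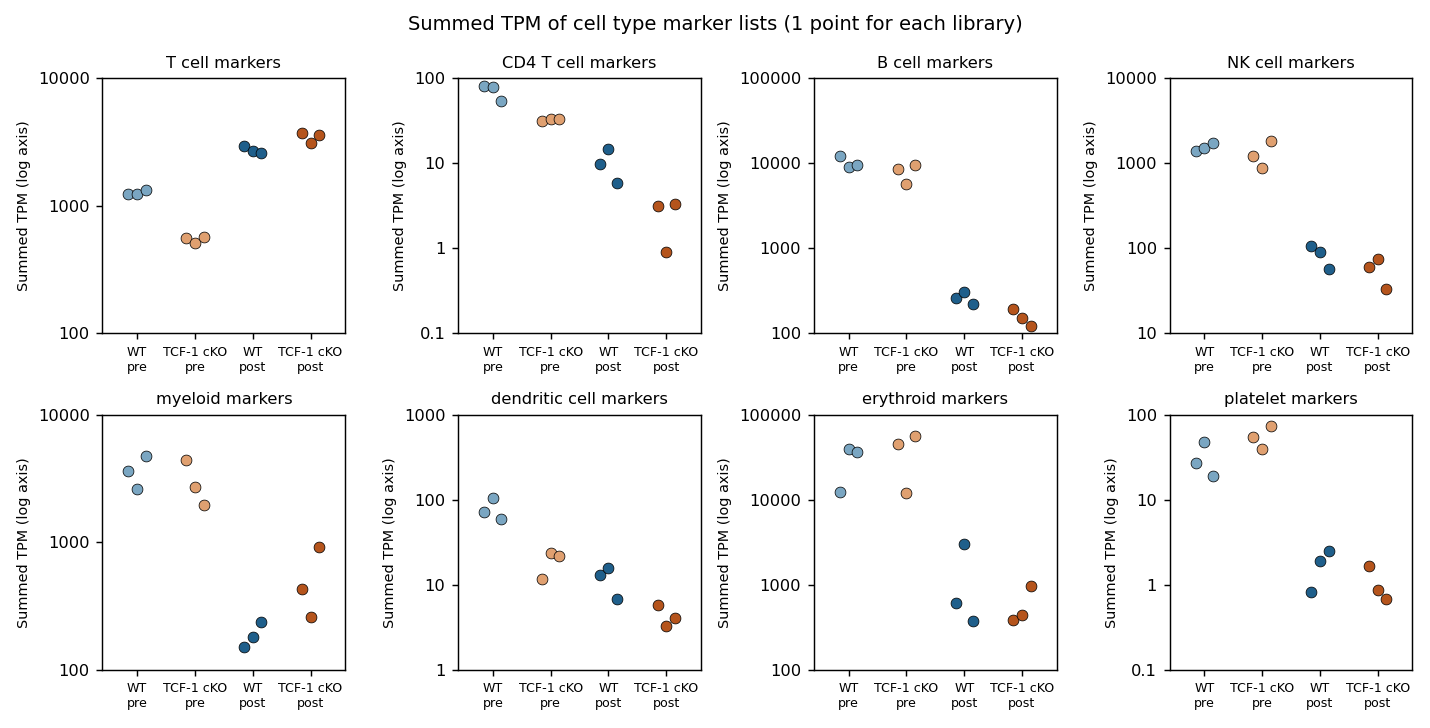
Summed TPM of 8 cell type marker lists (log axes) in the 4 groups, with 1 point for each library. Pre-transplant libraries held 5699 to 12076 TPM of B cell markers against 120 to 308 TPM post-transplant, and the T cell marker sums were lowest, at 512 to 567 TPM, in pre-transplant TCF-1 cKO libraries.

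Levels below are in TPM, which is scaled for transcript length and so can be set side by side between genes. Differences are log2 fold changes of TMM-normalized counts from edgeR's quasi-likelihood test, with the standard error and with p adjusted by Benjamini-Hochberg over all genes tested, and a member was called at an FDR below 0.1. The genotypes were compared at each stage to ask whether loss of TCF-1 changes ligand expression by donor CD8 T cells. The stages were compared to describe how ligand levels differed before and after transplant in each genotype. Stage and cell content differ together in these libraries, so a stage difference cannot be assigned to transplantation. Comparisons that have a group in common share its libraries, so their values are not independent.

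Ccl5, whose receptors include Ccr1 and Ccr3, was the most abundant member in every library. Post-transplant it stood at 3652, 4397 and 1422 TPM in WT replicates 1 to 3 and at 697, 441 and 327 TPM in TCF-1 cKO replicates 1 to 3. The groups did not overlap, although WT replicate 3 was the lowest of its group by far. Ccl5 was lower in TCF-1 cKO, the log2 fold change being -2.94 (standard error 0.59, adjusted p = 0.0448). Before transplant it was found at 1052, 759 and 1002 TPM in WT and at 627, 764 and 1179 TPM in TCF-1 cKO libraries. Here the groups overlapped and the log2 fold change was -0.24 (standard error 0.46, adjusted p = 0.785). Without TCF-1 cKO pre-transplant replicate 3, the library highest in Ccl5, the pre-transplant value became -0.95 with an adjusted p of 0.0969.

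Between stages Ccl5 rose in WT cells, by 2.96 on the log2 scale (standard error 0.55, adjusted p = 0.00715). For TCF-1 cKO the TMM-scaled value was 0.97 (standard error 0.52, adjusted p = 0.195), and its sign depended on scaling, at -0.53 with library totals and -0.83 with log2(TPM + 1), where limma gave an adjusted p of 0.0881. Without TCF-1 cKO pre-transplant replicate 3 the TMM-scaled value was 1.79, with an adjusted p of 0.00661.

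Ccl3, a ligand of Ccr1, and Ccl4, a close relative of it, moved alike. Ccl4 reached 570, 583 and 298 TPM in WT post-transplant replicates 1 to 3 and 125, 190 and 127 TPM in TCF-1 cKO replicates 1 to 3. Ccl3 reached 133, 133 and 69.9 TPM in WT and 24.5, 60.3 and 27.8 TPM in TCF-1 cKO post-transplant libraries. For both genes every WT library lay above every TCF-1 cKO library, WT replicate 3 again being the lowest WT library. Ccl4 was lower in TCF-1 cKO, with -1.93 on the log2 scale (standard error 0.50, adjusted p = 0.0497) and Ccl3 by -1.78 (standard error 0.58, adjusted p = 0.0887). With library totals in place of TMM neither gene passed, at -1.41 (adjusted p = 0.102) for Ccl4 and -1.27 (adjusted p = 0.173) for Ccl3.

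Before transplant both genes varied more within than between genotypes. Ccl4 stood at 80.5, 7.19 and 6.22 TPM in WT and at 8.22, 28.8 and 32.2 TPM in TCF-1 cKO libraries. Ccl3 stood at 28.7, 4.58 and 13.2 TPM in WT and at 2.06, 8.86 and 10.5 TPM in TCF-1 cKO libraries. WT replicate 1 was the highest library for both genes. The log2 fold changes of Ccl3 (-1.21, standard error 0.97, adjusted p = 0.488) and Ccl4 (-0.51, standard error 0.99, adjusted p = 0.784) did not pass. Without WT replicate 1 the Ccl4 value turned to 1.61 (adjusted p = 0.473).

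After transplant both genes rose in each genotype. In WT cells the log2 fold change was 5.20 (standard error 1.04, adjusted p = 0.00983) for Ccl4 and 4.07 (standard error 0.76, adjusted p = 0.00732) for Ccl3. The TCF-1 cKO values were 4.45 (standard error 0.65, adjusted p = 0.00102) for Ccl4 and 4.15 (standard error 0.74, adjusted p = 0.00293) for Ccl3. Summed B cell, myeloid, erythroid and NK markers were lower and summed T cell markers higher in post-transplant libraries of both genotypes, and the stage cannot be told apart from that difference in cell content.

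Ccl1, the Ccr8 ligand, showed the widest range of the set. WT post-transplant replicates 1 to 3 held 146, 94.1 and 45.8 TPM, and TCF-1 cKO post-transplant replicates 1 to 3 held 8.86, 15.1 and 15.3 TPM. Even the lowest WT library, replicate 3, lay above the highest TCF-1 cKO library, and the log2 fold change was -2.98 (standard error 0.61, adjusted p = 0.0448). Before transplant the order was the other way, at 1.40, 1.70 and 0.904 TPM in WT and 9.02, 4.72 and 1.83 TPM in TCF-1 cKO libraries. These pre-transplant levels rest on 7 to 21 estimated counts a library. The groups did not overlap in TPM but did in normalized CPM, and the difference of 1.86 on the log2 scale (standard error 1.27, adjusted p = 0.425) did not pass.

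Ccl1 rose between stages in both genotypes, by 7.05 on the log2 scale (standard error 0.80, adjusted p = 0.000962) in WT and 2.98 (standard error 0.68, adjusted p = 0.0104) in TCF-1 cKO cells. With library totals the TCF-1 cKO value was 1.32 (adjusted p = 0.178). The change of the genotype difference between stages, tested as an interaction over the 12 libraries, was -4.26 for Ccl1 (standard error 0.88, unadjusted p = 0.000182) and did not pass after adjustment over all genes (adjusted p = 0.233). Its adjusted p ranged from 0.000298 with the DESeq2 Wald test to 0.423 over 27 alternatives.

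Xcl1, the Xcr1 ligand, was not called between the genotypes at either stage. Post-transplant libraries held 85.7, 38.1 and 106 TPM in WT replicates 1 to 3 and 65.5, 50.8 and 78.8 TPM in TCF-1 cKO replicates 1 to 3. The groups overlapped, with WT libraries both highest and lowest, and the log2 fold change was -0.36 (standard error 0.47, adjusted p = 0.644). Before transplant Xcl1 stood at 19.8, 9.78 and 36.0 TPM in WT and at 16.4, 15.2 and 11.1 TPM in TCF-1 cKO libraries (log2 fold change -0.82, standard error 0.85, adjusted p = 0.592). Unlike Ccl3, Ccl4, Ccl5 and Ccl1, Xcl1 was not low in the library labelled WT post-transplant replicate 3, which was its highest. Between stages it rose by 2.95 on the log2 scale (standard error 0.70, adjusted p = 0.0203) in WT and 4.12 (standard error 0.45, adjusted p = 0.00023) in TCF-1 cKO cells.

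Ccl9, the Ccr1 ligand, was the scarcest member post-transplant. Before transplant it stood at 4.93, 5.91 and 5.72 TPM in WT and 9.67, 6.86 and 5.33 TPM in TCF-1 cKO libraries (log2 fold change 0.13, standard error 0.66, adjusted p = 0.923). Post-transplant it stood at 1.22, 0.132 and 0.34 TPM in WT and 0.885, 2.83 and 1.97 TPM in TCF-1 cKO libraries. In TPM these post-transplant groups overlapped, whereas in normalized CPM every TCF-1 cKO library lay above every WT library. The difference of 1.70 on the log2 scale (standard error 0.61, adjusted p = 0.112) did not pass with edgeR, and it did with the DESeq2 Wald test at 1.64 (adjusted p = 0.0375). In WT cells Ccl9 fell by 2.25 on the log2 scale between stages (standard error 0.82, adjusted p = 0.0982). That call was lost without any 1 of the 6 WT libraries, with an adjusted p between 0.151 and 0.299. Its TCF-1 cKO value was 0.022 (standard error 0.48, adjusted p = 0.977) with TMM but -1.55 (adjusted p = 0.0381) with library totals and -1.54 (adjusted p = 0.0177) with log2(TPM + 1) in limma. Summed myeloid markers were 2622 to 4768 TPM before and 152 to 238 TPM after transplant in WT, and 1968 to 4469 TPM and 258 to 928 TPM in TCF-1 cKO libraries, and their part in this was not tested.

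**Figure D2:**
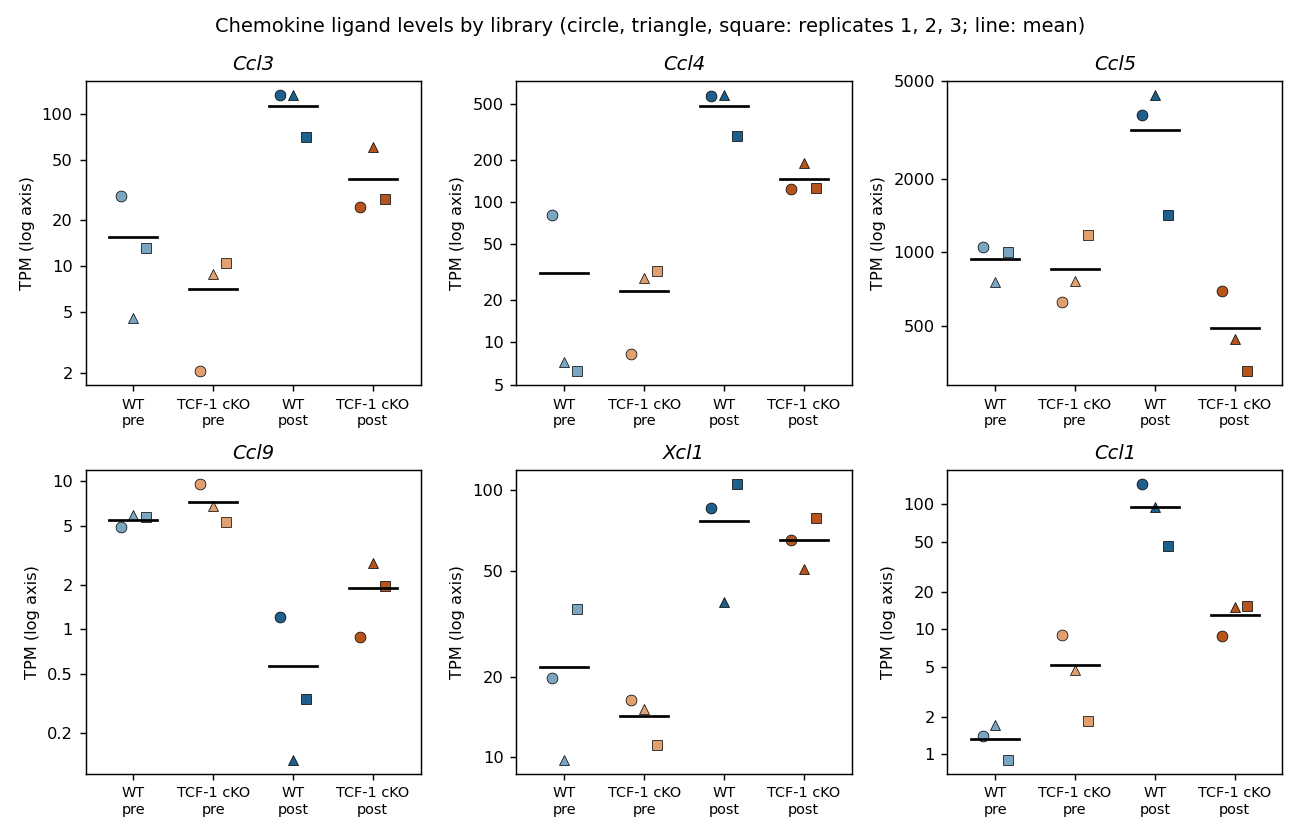
TPM (log axes) of the 6 ligands in the 4 groups, with a symbol for each replicate and a line at the mean of 3 libraries. Post-transplant WT libraries lie above post-transplant TCF-1 cKO libraries for Ccl3, Ccl4, Ccl5 and Ccl1, the groups overlap for Xcl1, and Ccl9 TPM is lower after transplant than before, a direction that in TCF-1 cKO cells is not seen on the TMM scale (0.022).

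Counted by comparison, 4 of the 6 members, Ccl3, Ccl4, Ccl5 and Ccl1, were lower in TCF-1 cKO post-transplant cells, where 15.4% of the 16026 genes tested were called lower. The same 4 had groups that did not overlap in normalized CPM with TCF-1 cKO the lower, against 18.8% of genes, and each had an exact two-sided permutation p of 0.1, the smallest that 3 libraries against 3 allow. The median log2 fold change of the 6 members was -1.86, beside 0.15 over all genes tested. No member was called between genotypes before transplant (0 of 6, and 0 of 6 at an unadjusted p below 0.05), where 0.0373% of 18757 genes were called. DESeq2 and limma-voom, with and without sample weights, also called 0 of 6 there. None of the members had non-overlapping pre-transplant groups in normalized CPM, against 29.1% of genes in either direction.

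In WT cells 5 of the 6 members were higher post-transplant, where 9.70% of 16790 genes were called higher, and 1, Ccl9, was lower, where 10.3% were called lower. For the same 5 every post-transplant library lay above every pre-transplant library in normalized CPM, against 12.9% of genes. In TCF-1 cKO cells 4 of the 6, Ccl3, Ccl4, Xcl1 and Ccl1, were higher post-transplant, where 19.7% of 18535 genes were called higher, and the same 4 did not overlap between stages, against 23.0% of genes. The interaction called 0 of 6 members with edgeR, where 0.00465% of 21526 genes were called, although 3 of 6 (Ccl1, Ccl5 and Ccl9) had an unadjusted p below 0.05. DESeq2 called those 3, limma-voom 0 and limma-voom with sample weights 1, which was Ccl1.

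**Figure D3:**
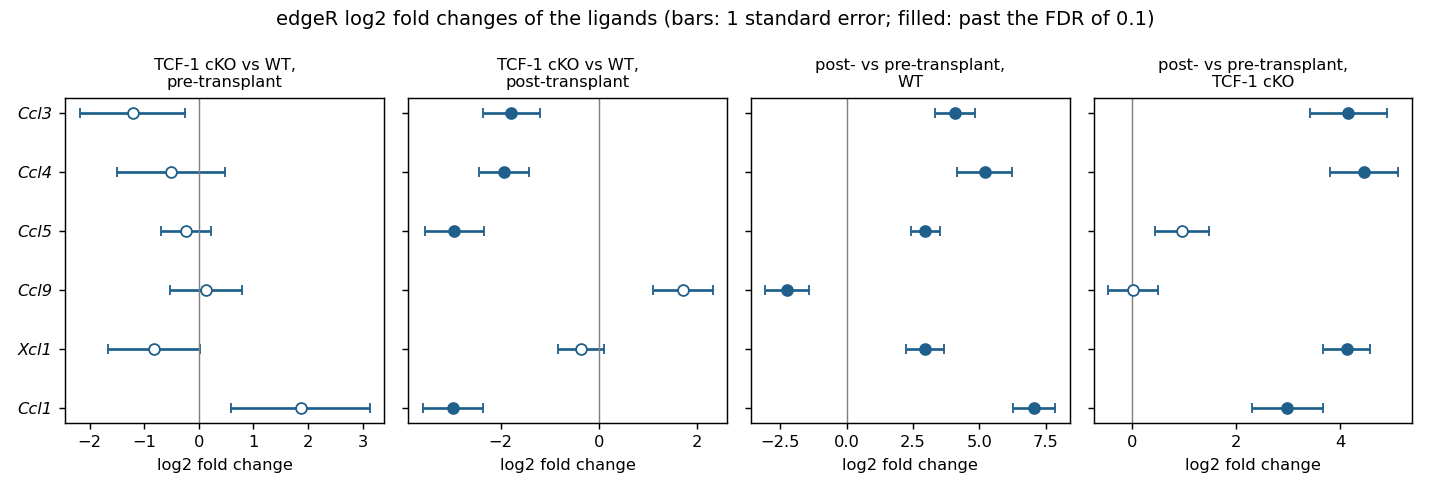
edgeR log2 fold changes of the 6 ligands in the genotype and stage comparisons, with bars of 1 standard error and filled points past the FDR of 0.1. No ligand is filled between genotypes before transplant, Ccl3, Ccl4, Ccl5 and Ccl1 are filled and below 0 post-transplant, and with library totals or TPM the Ccl5 and Ccl9 values of the TCF-1 cKO stage comparison lie below 0.

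The post-transplant calls rested on all but 1 of the libraries. Leaving out any 1 of the 3 TCF-1 cKO libraries, WT replicate 1 or WT replicate 2 left 0 of 6 members called, while directions stayed and adjusted p-values of the 4 ligands lay between 0.109 and 0.291. Over all genes these fits called 0 to 2 genes, against 2868 with every library. Without WT replicate 3, the library that went against its label in Tcf7, all 4 were called at larger differences, from -3.39 for Ccl1 (adjusted p = 0.00249) to -2.13 for Ccl3 (adjusted p = 0.023). Without TCF-1 cKO replicate 2, the library with a CD4 source label, the 4 log2 fold changes lay between -3.13 and -2.22, each at an adjusted p of 0.131.

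The genotype difference post-transplant also followed GC content, with a Spearman's rho of -0.57 over 16026 genes, which are not independent. The members ranged from 43.6% GC (Ccl9) to 53.6% (Ccl5), around a median of 49.5% of the genes tested. With an offset for GC content and length, which brought rho to -0.04, the differences of Ccl3 (-3.26), Ccl4 (-2.97) and Ccl1 (-3.67) grew and that of Ccl5 was -2.66. Xcl1 was then called too, at -1.67, and all 5 had an adjusted p of 0.0945. With a replicate block and that offset together 0 of 6 were called, the lowest adjusted p being 0.145.

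**Figure D4:**
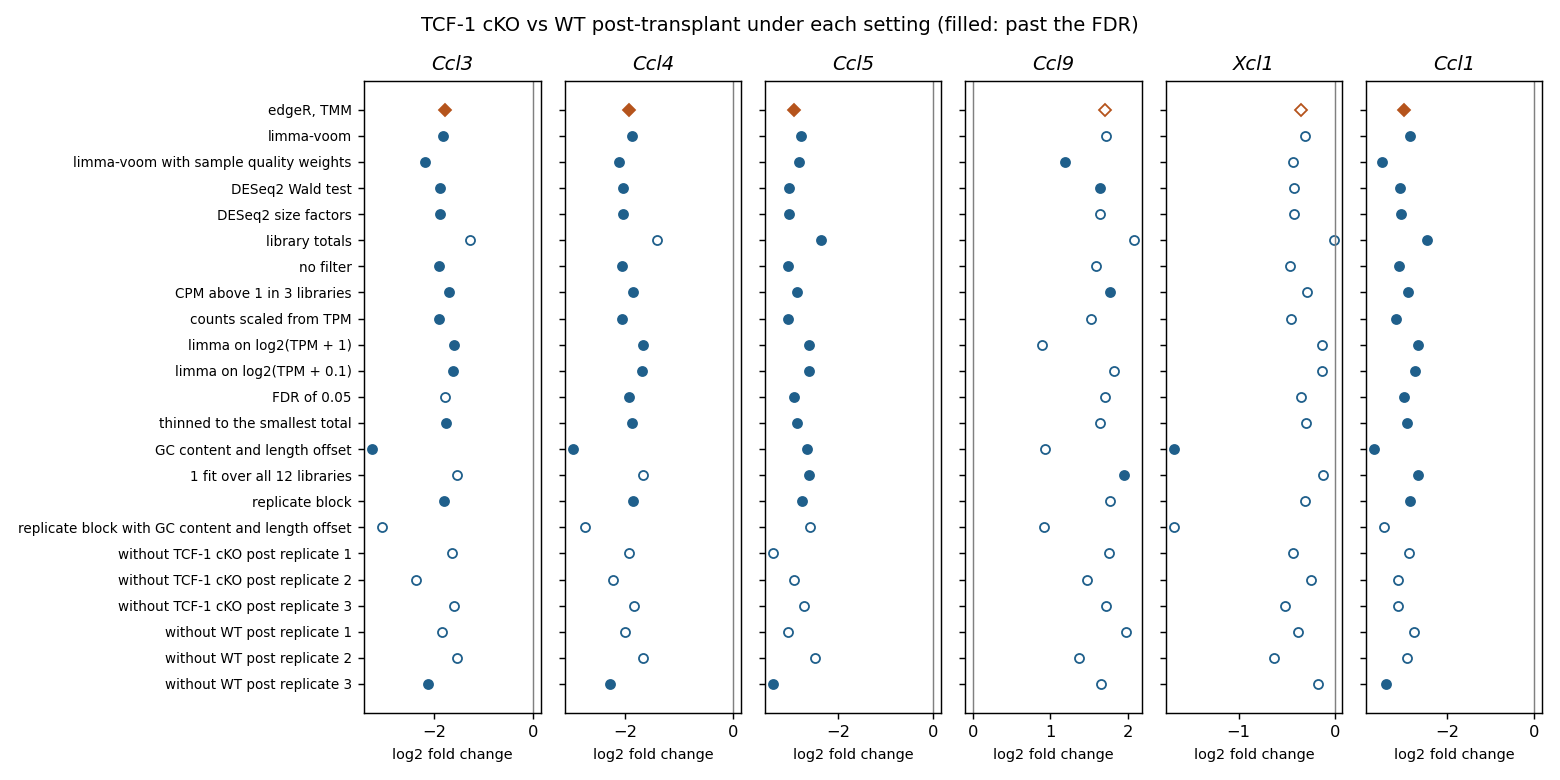
Log2 fold changes of the 6 ligands between TCF-1 cKO and WT post-transplant cells under each processing setting (rows), with filled points past the FDR. Ccl3, Ccl4, Ccl5 and Ccl1 lie below 0 in all rows, and the open points in the lowest block show that leaving out any library but WT replicate 3 ended their calls.

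As a share of the TPM summed over the 6 ligands, Ccl5 held 88.6% to 96.3% in WT and 92.2% to 95.1% in TCF-1 cKO libraries before transplant. Post-transplant it held 79.6%, 83.8% and 73.2% in WT and 75.6%, 58.1% and 56.6% in TCF-1 cKO replicates 1 to 3. The summed level was 4587, 5245 and 1943 TPM in WT post-transplant and 922, 760 and 577 TPM in TCF-1 cKO post-transplant replicates 1 to 3. For TCF-1 cKO the sum thus lay within the pre-transplant range of 672 to 1240 TPM or below it. Xcl1 made up 6.68% to 13.7% of the sum in TCF-1 cKO and 0.727% to 5.46% in WT post-transplant libraries. The ratio of Ccl4 to Ccl3 ran post-transplant from 3.15 to 5.09 in TCF-1 cKO and from 4.26 to 4.40 in WT libraries. Before transplant it ran from 3.05 to 3.99 in TCF-1 cKO and more widely, from 0.472 to 2.80, in WT libraries.

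**Figure D5:**
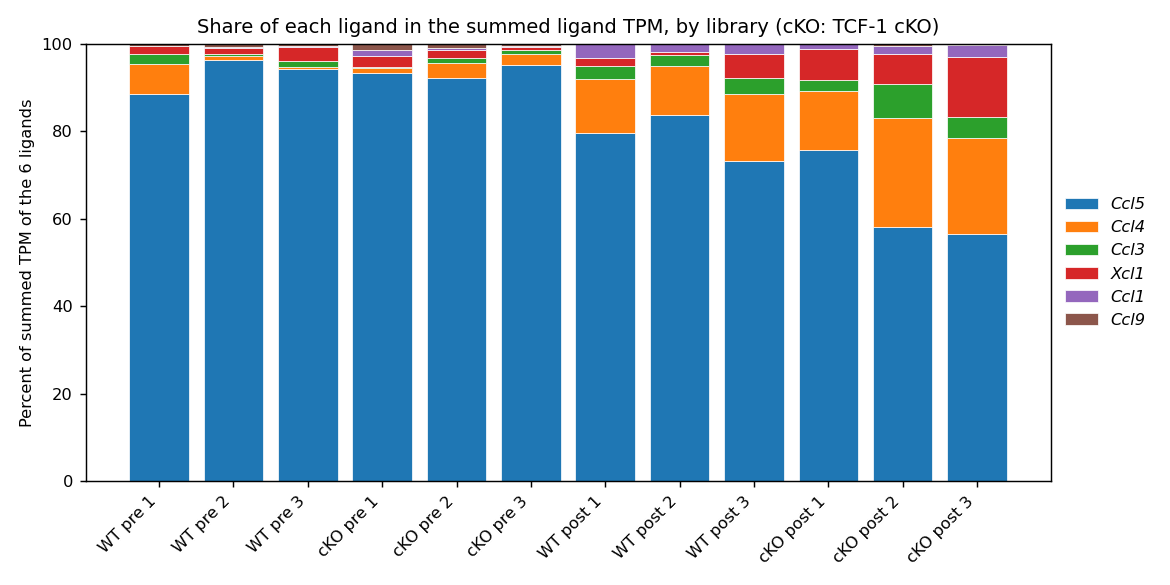
Share of each ligand (percent) in the TPM summed over the 6 ligands, with 1 bar for each library. Ccl5 holds between 88.6% and 96.3% of every pre-transplant bar and between 56.6% and 83.8% of the post-transplant bars, where the Ccl4 share, at 11.1% to 25.0%, lies above that of every pre-transplant bar (0.585% to 6.77%).

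By mean level post-transplant WT cells ranked Ccl5 (3157 ± 1548 TPM, SD, n = 3), Ccl4 (484 ± 161), Ccl3 (112 ± 36.2), Ccl1 (95.2 ± 49.9), Xcl1 (76.7 ± 34.9) and Ccl9 (0.564 ± 0.577). Ccl3, Ccl1 and Xcl1 overlapped there and could not be ordered. Post-transplant TCF-1 cKO cells ranked Ccl5 (488 ± 190 TPM, SD, n = 3), Ccl4 (147 ± 36.9), Xcl1 (65.0 ± 14.0), Ccl3 (37.5 ± 19.8), Ccl1 (13.1 ± 3.68) and Ccl9 (1.89 ± 0.973), with Xcl1 and Ccl3 overlapping. Pre-transplant levels of Ccl5 were 938 ± 157 TPM in WT and 857 ± 288 TPM in TCF-1 cKO cells (SD, n = 3), and no other member exceeded 80.5 TPM in any pre-transplant library.

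Because T cell markers made up an unequal part of the libraries, member TPM was also expressed as a percentage of the TPM summed over the 6 T cell markers, a scale chosen after the data were seen. Before transplant the genotypes did not overlap on this scale for Ccl5, Ccl9 and Ccl1, with TCF-1 cKO the higher. Ccl5 stood at 112% to 208% in TCF-1 cKO and 61.2% to 84.4% in WT libraries, opposite in direction to its TMM-scaled value of -0.24. Ccl9 stood at 0.940% to 1.72% against 0.395% to 0.477%, and Ccl1 at 0.323% to 1.61% against 0.0677% to 0.137%. These pre-transplant differences were not tested. The T cell marker sum was itself 512 to 567 TPM in TCF-1 cKO and 1240 to 1335 TPM in WT libraries. That difference in the divisor raises every gene in TCF-1 cKO on this scale. The share of all genes that separate on it was not counted. Post-transplant Ccl3, Ccl4, Ccl5 and Ccl1 kept the genotype order, with Ccl5 at 54.9% to 163% of the marker sum in WT and 9.02% to 18.6% in TCF-1 cKO libraries. Ccl4 stood at 11.5% to 21.7% against 3.33% to 6.11%, and Ccl1 at 1.77% to 4.97% against 0.236% to 0.487%. The post-transplant divisor was 2589 to 2930 TPM in WT and 3104 to 3748 TPM in TCF-1 cKO libraries, and its markers differed in opposite directions. Cd3e stood at 110 to 571 TPM in WT and 49.4 to 59.8 TPM in TCF-1 cKO libraries. Cd3g stood at 170 to 1035 TPM in WT and 1364 to 2070 TPM in TCF-1 cKO libraries. Between stages the picture changed in TCF-1 cKO cells. There Ccl5 stood at 112% to 208% before and 9.02% to 18.6% after transplant. On this scale the log2 ratio of group means was -0.23 for Ccl3, -0.50 for Xcl1 and -1.32 for Ccl1, opposite in sign to the TMM-scaled rise. The marker sum in TCF-1 cKO was 512 to 567 TPM before and 3104 to 3748 TPM after transplant, which lowers every gene on this scale. The markers in the sum did not move alike in TCF-1 cKO cells. Cd3g stood at 85.3 to 110 TPM before and 1364 to 2070 TPM after transplant. Cd3e stood at 40.3 to 75.9 TPM before and 49.4 to 59.8 TPM after it, while Cd3d, Trac, Cd8a and Cd8b1 were higher after transplant. In WT cells the ratios kept their sign, at 1.73 for Ccl3, 0.74 for Xcl1, 0.64 for Ccl5 and 5.01 for Ccl1. The WT divisor did not move evenly either. Cd3e, Cd3g and Trac overlapped between stages in WT libraries, while Cd3d, Cd8a and Cd8b1 were higher after transplant. The other cells in the pre-transplant libraries may themselves hold these transcripts, and their part was not tested.

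Receptors of these ligands were low post-transplant, where Ccr1, Ccr3, Ccr8, Xcr1 and the scavenging receptor Ackr2 stayed at or below 5.32 TPM. Between genotypes none of these 5 passed with edgeR before transplant, and none of the 4 tested passed after it (1, Xcr1, and 0 at an unadjusted p below 0.05). In WT cells Ackr2 (-6.25, adjusted p = 0.0207) and Ccr1 (-3.92, adjusted p = 0.0686) fell between stages. In TCF-1 cKO cells Ccr1 (-2.11, adjusted p = 0.0162) and Ackr2 (-3.59, adjusted p = 0.055) fell too, and Ccr8 rose by 2.77 (adjusted p = 0.0598). That Ccr8 value was 1.05 with library totals and 0.48 with log2(TPM + 1), and its TPM overlapped between stages.

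Of the 13 genes that act downstream of chemokine receptors, 6 were lower and 1 was higher in TCF-1 cKO post-transplant cells, where 15.4% of all genes tested were called lower and 2.51% higher, with a list median of -0.87 beside 0.15 over all genes. Those with the smallest p were Rac2 (-3.78, adjusted p = 0.0448), a GTPase of leukocyte migration, Gnai2 (-3.04, adjusted p = 0.0448), the G protein subunit that couples to chemokine receptors, Grk6 (-3.15, adjusted p = 0.0448), which phosphorylates activated receptors, Arrb2 (-2.67, adjusted p = 0.0492), an arrestin, and Prex1 (-3.00, adjusted p = 0.051), an activator of Rac. Gnai2 stood at 716, 760 and 220 TPM in WT and 86.2, 136 and 65.9 TPM in TCF-1 cKO post-transplant replicates 1 to 3. Like Ccl5, it was lowest among WT libraries in replicate 3. Calls over all genes in this comparison ranged from 0 to 5299 with 1 library left out, against 2868 with every library. Values of these 13 genes with a library left out are not given here. Before transplant 0 of 13 passed with edgeR (2 at an unadjusted p below 0.05).

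Between stages 3 of these 13 rose and 4 fell in WT cells, beside 9.70% of all genes tested called higher and 10.3% lower, led by Arrb1 (-3.52, adjusted p = 0.00587), Rgs2 (-3.54, adjusted p = 0.0074), Arrb2 (2.75, adjusted p = 0.0161), Dock2 (-1.94, adjusted p = 0.0342) and Rgs16 (3.73, adjusted p = 0.0572). Of the 13, 3 rose and 1 fell in TCF-1 cKO cells, where 19.7% of all genes tested were called higher and 16.8% lower, namely Rgs1 (6.07, adjusted p = 0.000109), Rgs16 (3.34, adjusted p = 0.0654), Gnai3 (1.63, adjusted p = 0.0192) and Arrb1 (-2.71, adjusted p = 0.00422). Gnai3 changed sign with library totals (-0.056) and with log2(TPM + 1) (-0.22). Srgn, the proteoglycan core protein that holds chemokines in granules, rose by 2.65 (adjusted p = 0.00222) in TCF-1 cKO cells and was at 0.86 with log2(TPM + 1). Dpp4, a protease that trims chemokines, was called higher there with TMM at 2.19 (adjusted p = 0.00653) but was at -0.56 with log2(TPM + 1). Neither passed in the other 3 comparisons between groups, with 1 of the pair at an unadjusted p below 0.05 between genotypes post-transplant.

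Among 29 other chemokine ligands, 19 were tested before and 11 after transplant between genotypes and 0 passed with edgeR at either stage (1 and 0 at an unadjusted p below 0.05). In WT cells 3 of 16 fell after transplant, beside 10.3% of all genes tested, namely Ppbp (-8.01, adjusted p = 0.0102), Cxcl16 (-3.54, adjusted p = 0.0136) and Pf4 (-3.72, adjusted p = 0.0608). In TCF-1 cKO cells 3 of 21 rose and 6 fell, beside 19.7% and 16.8% of all genes tested, and those with the smallest p were Pf4 (-4.51, adjusted p = 0.00256), Ppbp (-6.51, adjusted p = 0.00961), Ccl24 (2.32, adjusted p = 0.0164), Cxcl3 (-2.98, adjusted p = 0.028) and Cxcl1 (-4.24, adjusted p = 0.0284). That Ccl24 value was 0.66 with library totals and 0.68 with log2(TPM + 1), and its TPM overlapped between stages. Pf4 and Ppbp are platelet chemokines, and summed platelet markers were 19.0 to 75.0 TPM before and 0.689 to 2.53 TPM after transplant, whose part was not tested.

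Across the 12 libraries, which fall into 4 groups, Pearson's r of log2(normalized CPM + 1) was 0.97 between Ccl3 and Ccl4 and between 0.66 and 0.90 for the other pairs of Ccl3, Ccl4, Ccl5, Xcl1 and Ccl1. Ccl9 had a negative r with every other member, from -0.86 with Ccl5 to -0.49 with Xcl1. Outside the set, genes among the 3 nearest to each member were 2610318N02Rik and Ly6c2 for Ccl3 (r from 0.982 to 0.984) and Cenpa, Cdca2 and Hmces for Ccl4 (0.978 to 0.983). They were Gm7336, Ctsd and H2-Q7 for Ccl5 (0.977 to 0.979) and Glipr2, Tomm22 and Kif22 for Xcl1 (0.984 to 0.987). Tigit, an inhibitory receptor, Lad1 and Popdc2 were nearest to Ccl1 (0.962 to 0.973), and Fbxl4, Tanc1 and Mettl14 to Ccl9 (0.909 to 0.945). These correlations describe libraries that differ together in stage, cell content and depth.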

How the data were processed

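Per the labels and the study's methods, total RNA of FACS-sorted CD8 T cells was made into cDNA with the SMART-Seq HT kit, sequenced as paired ends and pseudoaligned by the authors with Kallisto 0.46.2. The submitters' processing notes name the mm9 build and limma, and the transcript release is not given in the sources used here. For 117497 transcripts the authors deposited the estimated count, not scaled for depth or length, and a TPM value, scaled by Kallisto for effective length and depth. The transcript lengths and effective lengths deposited beside them were not tested.

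Transcripts were joined without version numbers to GENCODE M21 (GRCm38), possibly another release than the authors' own. A gene was found for 116374 transcripts of 35855 genes, and counts were summed by gene and rounded. The members and gene lists were chosen with earlier results of these data known, and the genes named from the lists are those past the FDR, at most 5 for each list and comparison by smallest p. Results of some genes are not reported here. Groups were taken from the titles. Each comparison was fitted on its own libraries with edgeR 4.0.16 by the quasi-likelihood test after TMM scaling and filterByExpr, with p adjusted by Benjamini-Hochberg, at the FDR of 0.1 of the study's methods. The standard error is the absolute log2 fold change divided by the square root of F. The fits were also run on counts simulated without a GC content trend or a difference in cell content. Those runs cannot speak to these features, and their outcome is not given here. Alternatives were limma 3.58.1 (voom, voom with sample weights, log2(TPM + 1), log2(TPM + 0.1)), DESeq2 1.42.0, other scalings, filters and thresholds, thinning, a GC content and length offset (loess, span 0.4, degree 2), a replicate block, a joint fit of the 12 libraries, and fits that each omitted 1 library.

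Library totals were 4520270 to 32657005, so that 3 counts correspond to 0.0922 to 0.667 CPM. Such floors cover counting error only, since reads carry no molecular identifiers. Replicates differed by more than counting error (chi-square per degree of freedom 22.4 to 647, Spearman's rho 0.789 to 0.882). The design text names 3 mice for each pre-transplant genotype, and where libraries share a mouse the p-values measure only the spread between libraries. R 4.3.3, Python 3.11.15, pandas 2.3.3, SciPy 1.17.1 and matplotlib 3.10.9 were used.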

Additional observations from a re-analysis of the deposited data

How the results depend on the processing

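Of the 6 ligands, the count past the FDR post-transplant between genotypes was 4, and it was 2 with library totals, 0 with the replicate block plus GC content and length offset, and 0 to 4 when 1 library was left out. Before transplant it was 0, or 0 to 1 with 1 library left out. Between stages it stayed within 1.5 times the 6 of WT and the 4 of TCF-1 cKO cells. In TCF-1 cKO cells, however, the members called and their directions changed. With library totals Ccl1 was no longer called and Ccl9 was called lower post-transplant, and with log2(TPM + 1) Ccl5 and Ccl9 were called lower. For the interaction the count was 0, but 1 with limma-voom and sample quality weights, 3 with DESeq2, 1 with no filter, 1 with either log2(TPM) fit, and 0 to 2 with 1 library left out. The cause was not tested.

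Fitted log2 fold changes turned in direction only where the value had not passed. Before transplant Ccl4 turned from -0.51 to 0.14 (limma-voom), 0.31 and 0.35 (log2 of TPM + 1 and + 0.1), 0.60 (replicate block) and 0.017 (replicate block plus offset). Ccl5 turned from -0.24 to 0.062 with library totals and 0.057 when thinned, and Ccl9 from 0.13 to -0.19 (no filter), -0.25 (offset), -0.088 (1 fit over 12 libraries) and -0.29 (replicate block plus offset). Between stages in TCF-1 cKO cells Ccl5 turned from 0.97 to -0.53 (library totals) and -0.83 in both TPM fits. Ccl9 turned from 0.022 to -1.55 (library totals), -0.040 (counts scaled from TPM), -1.54 and -1.98 (TPM fits), -0.085 (thinned), -0.55 (offset) and -0.52 (replicate block plus offset). The interaction of Ccl3 turned from -0.15 to 0.40 with sample weights. With 1 library left out, the ranges that crossed 0 were -1.22 to 1.61 (Ccl4), -0.95 to 0.0027 (Ccl5) and -0.11 to 0.24 (Ccl9) between genotypes before transplant, -0.066 to 0.26 (Ccl9) between stages in TCF-1 cKO cells and -1.09 to 0.58 (Ccl3) for the interaction. Per T cell marker sum, which itself rose between stages, -0.23 (Ccl3), -0.50 (Xcl1) and -1.32 (Ccl1) were the ratios of TCF-1 cKO cells between stages.

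Against TMM, library totals moved the median gene by 0.33 before and 0.42 after transplant between genotypes, by -0.96 between stages in WT and by -1.61 in TCF-1 cKO cells. Called genes between stages were 3362 in WT (1628 higher) and 6774 in TCF-1 cKO (3660 higher), and 4853 (717 higher) and 12268 (1660 higher) with library totals. Between genotypes the counts were 7 before transplant (0 to 7566 over the alternatives) and 2868 after it (2 to 7591, and 583 with the offset), the interaction called 1 (0 to 3440), and the stage counts were 2255 to 6732 in WT and 5157 to 13216 in TCF-1 cKO, and with 1 library left out 0 to 2739, 0 to 5299, 0 to 2093, 1579 to 4156 and 5242 to 7114. Same-numbered replicates had correlations of deviations between -0.106 and 0.115, so the numbers were not taken to pair libraries. The replicate block left the 4 post-transplant calls between genotypes and 2038 genes, and in WT between stages it left 5 members.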
